A study of Homo sapiens with 12 samples.

Results

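T24 cells in which YY1 had been knocked down were compared directly with T24 cells in which FDPS had been knocked down, without the control siRNA entering the test. T24 is an established line of human bladder transitional cell cancer (BLCA), labelled wild type in every library, so the labels give the siRNA as the only difference between the groups. The series holds 12 libraries, 3 for each of the groups siNC (control siRNA), siFDPS, siSQLE and siYY1. The last 3 groups are named for the gene their siRNA targets. The labels give total RNA as the extracted material and a stranded mRNA kit for the libraries. The comparison used 6 of the 12, namely the 3 siYY1 and the 3 siFDPS libraries, labelled as biological replicates of 1 cell line, and differences are given as siYY1 minus siFDPS. The siNC libraries, and where stated the siSQLE libraries, are printed only as values beside them. The time after transfection is not given in the labels, and the siRNA used on FDPS is called siFDPS-1 in the study's methods, which do not describe the one used on YY1.

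YY1 is a zinc finger transcription factor that activates some genes and represses others, and it is found with the INO80 remodelling complex and with Polycomb proteins. FDPS makes farnesyl diphosphate in the mevalonate (MVA) pathway, the precursor of sterols, of the prenyl groups that anchor proteins in membranes, of dolichol and of ubiquinone. Sterol enzymes are themselves controlled by SREBP factors, which leave the endoplasmic reticulum when its sterol content is low, while the MiT/TFE factors control lysosomal genes and the E2F factors control genes of DNA replication.

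The total count ranged from 60656106 to 62168745 in siYY1 and from 51307581 to 56784233 in siFDPS libraries, so the siYY1 libraries were the deeper ones. Mitochondrially encoded genes took between 3.63% and 3.83% of the counts in siYY1 and between 5.20% and 5.39% in siFDPS libraries. The log2 CPM (the count of a gene relative to the TMM-scaled total of its library) of 2 libraries of the same group correlated across genes with r between 0.984 and 0.986, against 0.948 to 0.951 between the groups. No library stood apart. The cells had, as group means, the keratins KRT7, KRT8 and KRT18 at 347 to 667 CPM and the mesenchymal genes VIM and CDH2 at 83.4 to 2080 CPM. The uroplakins UPK1A, UPK1B, UPK2, UPK3A and UPK3B, the basal keratins KRT5 and KRT14 and the cadherin CDH1 were at or near 0, with at most 0.207 CPM, so the uroplakins that define differentiated urothelium were absent from both groups. The full list of 9 basal markers, KRT5 and KRT14 among them, still summed to 159 to 208 CPM in siYY1 and 269 to 295 CPM in siFDPS libraries. Of the luminal regulators, PPARG was at 73.2 and 83.9 CPM, FOXA1 at 30.5 and 15.3 CPM and GATA3 at 0.666 and 0.546 CPM as siYY1 and siFDPS means.

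YY1 was the first check of the labels. It had 24, 24.9 and 23.7 CPM in siYY1 libraries 1 to 3 and 196, 209 and 201 CPM in siFDPS libraries 1 to 3. The groups were far apart, with a log2 fold change of −3.11 (SE 0.0470, edgeR adjusted p = 7.8e-07). YY1 lies on chromosome 14 of GRCh38 (100238298 to 100282792, plus strand), where AL157871.5 and MIR6764 overlap it on the same strand. FDPS (chromosome 1, 155308748 to 155320666, plus strand) had 134, 137 and 136 CPM in siYY1 libraries and 24.6, 24.3 and 24.7 CPM in siFDPS libraries. Its log2 fold change was 2.42 (SE 0.0385, edgeR adjusted p = 7.8e-07). Each siRNA group was thus lowest in its own target, and each lay above the siNC mean in the other's target: YY1 was at 142 CPM and FDPS at 87.0 CPM in siNC libraries. SQLE, the squalene epoxidase gene that neither siRNA targets, had 153, 148 and 141 CPM in siYY1 and 86.4, 87.9 and 86.3 CPM in siFDPS libraries, which is a log2 fold change of 0.72 (SE 0.0444, edgeR adjusted p = 2.5e-05).

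**Figure D1:**
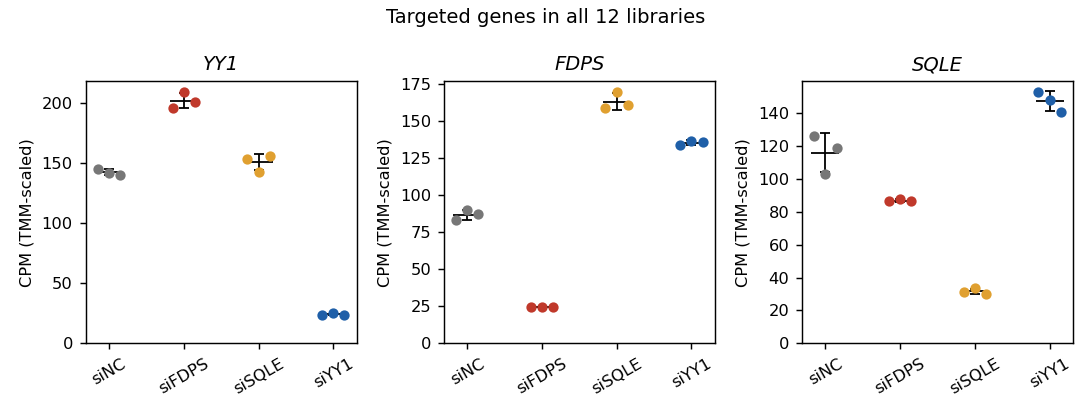
CPM (TMM-scaled, vertical axes from 0) of YY1, FDPS and SQLE in each of the 12 libraries. Points are libraries, lines are group means and bars are 1 SD (n = 3); YY1 was lowest in the 3 siYY1 libraries (mean 24.2 CPM) and FDPS in the 3 siFDPS libraries (mean 24.5 CPM).

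The groups differed in a majority of the genes tested. Of 18909 genes, 10804 (57.1%) had an adjusted p under 0.05 in edgeR's quasi-likelihood test. Of all genes tested, 29.0% (5476) were higher and 28.2% (5328) were lower in siYY1 than in siFDPS libraries. At least 2-fold changes were found in 10.3% (1946 higher) and 11.7% (2214 lower) of the genes. The CPM of the 3 siYY1 and the 3 siFDPS libraries did not overlap for 12388 genes (65.5%). The median log2 fold change of all genes tested was −0.02. Every count of list members below is to be read against these shares, since a list with about 3 in 10 of its members on each side resembles the whole table.

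The siNC libraries show on which side of the comparison a gene lay, without being part of the test. Of the 5476 genes higher in siYY1, the siNC mean lay between the group means for 2786 (50.9%), above both for 1128 and below both for 1562. For the 5328 lower genes the siNC mean was between the groups for 2566 (48.2%). Among genes with at least a 2-fold change the share between the groups was 68.1% of the higher and 63.4% of the lower genes.

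Protein-coding and non-coding genes did not divide alike. Of 13624 protein-coding genes tested, 35.5% were higher and 28.3% lower in siYY1. Of 1388 antisense genes 11.1% were higher and 27.4% lower, of 946 lincRNAs 14.5% and 27.6%, and of 247 sense intronic transcripts 8.50% and 34.0%. Sense intronic transcripts took 0.0331% to 0.0341% of the counts in siYY1 libraries and 0.0474% to 0.0516% in siFDPS libraries, against 0.0359% to 0.0373% in siNC libraries. With upper-quartile scaling the protein-coding shares became 30.5% higher and 33.7% lower, and the sense intronic shares 7.69% and 38.9%.

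Over the gene lists, the widest departures from the shares of the whole table were those of DNA replication and mitosis on the higher side, and of lysosomal, V-ATPase, inflammatory and mitochondrially encoded genes on the lower side. Fatty acid synthesis, ribosome biogenesis, glycolysis and proteasome genes lay mostly on the higher side. Polycomb genes, interferon-stimulated genes, prenyl transferases and YAP/TAZ targets were divided, with higher and lower members in similar number.

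All 43 DNA replication genes tested were higher in siYY1 than in siFDPS libraries, with a median log2 fold change of 1.45 and a range from 0.31 to 3.71. GINS2, which belongs to the GINS part of the replicative helicase, had 66.3, 65.8 and 65.4 CPM in siYY1 libraries and 4.57, 5.29 and 4.84 CPM in siFDPS libraries. It differed by a log2 fold change of 3.71 (SE 0.0725, edgeR adjusted p = 9.2e-07). GINS1 of the same complex had 126, 125 and 122 CPM against 20.7, 19.6 and 20.1 CPM, a log2 fold change of 2.59. MCM10, which helps to activate the helicase at origins, had 45.4, 42.5 and 44.1 CPM against 6.54, 7.90 and 7.98 CPM, a log2 fold change of 2.51. For none of the 43 genes did the libraries of the groups overlap. In siNC libraries GINS2 was at 10.9, GINS1 at 33.6 and MCM10 at 8.8 CPM, closer to the siFDPS than to the siYY1 levels. Over the list the median log2 difference from the siNC mean was 1.32 in siYY1, −0.05 in siFDPS and 0.20 in siSQLE libraries.

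The promoters of the replication genes were searched for an E2F-type motif, which was chosen after the results were seen. Because E2F factors control genes of DNA replication, the share with a match describes the list and not the comparison. Of the 36 with a promoter in the RefSeq table (GRCh38.p14, 250 bases before to 50 after the start site), 19 (52.8%) held an E2F-type motif, TTTCCCGC or TTTGGCGC on either strand, against 4.47% of the 11269 tested genes with a promoter and 2.27% of all 35116 promoters. The 19 genes with the motif and the 17 without it were all higher in siYY1, with median log2 fold changes of 1.62 and 1.22. Over all tested genes, 46.6% of the 504 with the motif were higher and 21.2% lower, against 34.6% and 28.4% of the 10765 without it. A match is a description of the letters and not of binding. The stretches around the motif (capitals) are shown for the 3 matching replication genes that differed most between the groups. They are GINS2 (chr16:85688933-85689030, minus strand), GINS1 (chr20:25407633-25407702, plus strand) and POLA1, the catalytic subunit of DNA polymerase alpha (chrX:24693736-24693833, plus strand), all written 5′ to 3′ on the strand of the gene.
GINS2: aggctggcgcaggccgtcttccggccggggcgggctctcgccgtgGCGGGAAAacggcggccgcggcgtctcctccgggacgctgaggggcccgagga
GINS1: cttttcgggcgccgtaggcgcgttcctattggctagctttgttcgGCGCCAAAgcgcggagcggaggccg
POLA1: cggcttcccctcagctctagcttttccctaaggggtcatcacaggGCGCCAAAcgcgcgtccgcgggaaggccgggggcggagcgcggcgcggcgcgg
POLA1, which SCARNA23 overlaps on the same strand, had 126 ± 3.32 CPM in siYY1 and 22.3 ± 1.01 CPM in siFDPS libraries (SD, n = 3 in each), a log2 fold change of 2.45.

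All 49 mitosis and kinetochore genes tested were also higher in siYY1 than in siFDPS libraries, with a median log2 fold change of 1.31 (0.21 to 2.29). SPC25, a subunit of the NDC80 kinetochore complex, had 42.1, 44.1 and 42.8 CPM against 9.06, 9.10 and 7.38 CPM. KIF2C, a kinesin that depolymerizes microtubules at centromeres, had 179, 182 and 176 CPM against 37.1, 38.0 and 41.3 CPM. TOP2A, which untangles sister chromatids, had 545, 543 and 536 CPM against 118, 127 and 130 CPM. All 3 genes were separated between the groups in every library, and their log2 fold changes were 2.29, 2.16 and 2.07 (SE 0.0999, 0.0501 and 0.0416). The siNC mean of 41 of the 49 genes lay between the groups, with a median log2 difference from siNC of 0.87 in siYY1 and −0.55 in siFDPS libraries. The E2F-type motif was found in 3 (7.14%) of the 42 mitosis genes with a promoter.

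Regulators of the cell cycle were less uniform. Of 17 D and E cyclins, CDK inhibitors and pocket proteins tested, 11 were higher and 4 lower in siYY1. RBL1, a pocket protein of the RB family that binds E2F factors, had 96.4, 93.1 and 95.1 CPM in siYY1 and 18.5, 18.8 and 21.1 CPM in siFDPS libraries, which is a log2 fold change of 2.24. Its relative RBL2 differed by 1.61. CCNE1 (cyclin E1) had 24.1, 26.7 and 26.7 CPM against 6.35, 6.82 and 5.94 CPM, a log2 fold change of 1.98, with 4.80 CPM in siNC libraries. Lower members included the CDK inhibitor gene CDKN1C, with 1.98, 1.50 and 1.87 CPM against 17.8, 14.6 and 13 CPM (log2 fold change −3.13), and the inhibitor gene CDKN2B (−0.71). CCND1 (cyclin D1) was lower too, with 431, 424 and 435 CPM in siYY1 against 668, 647 and 683 CPM in siFDPS libraries (log2 fold change −0.67). Both groups were far below the siNC mean of 1530 CPM for CCND1 and of 71.7 CPM for CDKN1C.

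The genes with names starting with HIST, which include the replication-dependent histone genes, lay on the opposite side from the replication genes. They were taken by name alone, whatever their gene type, so pseudogenes with such names count too. This group was chosen after its values were seen, so its count is a description. Of 40 tested, 32 were lower, none was higher and 8 did not pass the test, and the median log2 fold change was −2.53 (range −4.53 to 0.92). Their summed CPM was 56.5, 56.2 and 59.1 in siYY1 libraries and 309, 293 and 289 in siFDPS libraries, with 162 to 179 in siNC libraries. The sums include HIST2H2BC (means of 11.7 CPM in siYY1 and 35.2 CPM in siFDPS libraries) and HIST2H2BD (8.73 and 14.5 CPM). HIST1H2BC had 0.383, 0.444 and 0.477 CPM against 9.83, 10.7 and 8.81 CPM (log2 fold change −4.53), and the linker histone gene HIST1H1C had 2.57, 2.48 and 3.24 CPM against 20.1, 22.3 and 22.6 CPM (−3.02). The histone variant genes H2AFX (1.36), H2AFV (0.77) and H2AFZ (0.67), which the search by name did not take, were higher in siYY1, as log2 fold changes. Many histone genes are near-identical copies that can share reads. Most of their mRNAs end without a poly(A) tail, and how the mRNA library kit captured them was not tested.

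In the MVA pathway, 7 of the 12 enzyme genes tested were higher in siYY1 than in siFDPS libraries and 3 were lower, with a median log2 fold change of 0.56. FDPS is 1 of the 7. Because this is the pathway of FDPS, members were named for their role, whatever their values. HMGCS1 (HMG-CoA synthase) had 136, 119 and 115 CPM in siYY1 and 38.9, 38.4 and 37.8 CPM in siFDPS libraries, which is a log2 fold change of 1.64 (SE 0.0706, edgeR adjusted p = 6.1e-06). MVK (mevalonate kinase) differed by 0.89, FDFT1 (squalene synthase) by 0.86, ACAT2 by 0.83 and ACAT1 by 0.70. The lower genes included PMVK (−0.49) and GGPS1 (−0.82). GGPS1, whose enzyme uses the product of FDPS to make geranylgeranyl diphosphate, had 23.0, 23.5 and 24 CPM in siYY1 and 50, 24.4 and 46.4 CPM in siFDPS libraries. Its siFDPS library 2 lay beside the siYY1 values, TBCE and AL391994.1 overlap the gene on the same strand, and omitting 1 library at a time ended the call in 5 of 6 cases (log2 fold change −1.08 to −0.63, adjusted p 0.077 to 0.091 where lost). MVD (0.18) and IDI1 (0.03) did not pass the test, and IDI2 had too few counts.

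From squalene to cholesterol, 6 of 12 genes were higher and 3 lower, with a median of 0.19. LSS, which closes squalene epoxide into lanosterol, had 138, 141 and 149 CPM in siYY1 and 373, 360 and 357 CPM in siFDPS libraries (log2 fold change −1.39, SE 0.0431, edgeR adjusted p = 2.5e-06). The siYY1 values were near the siNC mean of 147 CPM. SC5D, a late sterol desaturase gene, had 15.7, 7.04 and 17.4 CPM against 45.6, 44.3 and 57.5 CPM (−1.92). LBR and TM7SF2, which both encode sterol C14 reductases, were higher in siYY1 by 1.23 and 1.35, and DHCR7, the last reductase of the pathway, by 0.84.

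Genes of SREBP control and cholesterol traffic were divided, with 7 higher and 8 lower of 19. The HDL receptor gene SCARB1 was higher, with a mean of 121 CPM in siYY1 and 46.1 CPM in siFDPS libraries, which is a log2 fold change of 1.34, and its siNC mean of 75.1 CPM lay between them. On the lower side were NPC1, which exports cholesterol from lysosomes, with 216, 206 and 223 CPM against 467, 445 and 468 CPM (−1.14), MBTPS2, a protease that releases active SREBP (−1.29), the liver X receptor gene NR1H3 (−1.18) and the cholesterol exporter gene ABCA1 (−1.09). YY2 and RF00019 overlap MBTPS2 on the same strand, and how reads in the overlap were counted was not tested. MBTPS2 was at 27 CPM in siYY1, 64 CPM in siFDPS and 69 CPM in siNC libraries as group means. ABCG1 was at 0.288 and 0.361 CPM as group means and did not pass the test (−0.37).

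Fatty acid synthesis genes were on the higher side, with 11 of 16 higher, none lower and a median of 0.70. With upper-quartile scaling 11 were higher and 3 of the others were lower. FADS2 (1.57) and SCD5 (1.33), both fatty acid desaturase genes, and ME1 (1.24), whose enzyme supplies NADPH, led the list. FEN1 overlaps FADS2 and MIR575 overlaps SCD5 on the same strand, as other genes do for 9 of the 16 members in all. FADS2 was at 74.3 CPM in siYY1 and 24.4 CPM in siFDPS libraries as group means, both under its siNC mean of 113 CPM. Of 16 prenyl transferases and processing enzymes, 5 were higher and 6 lower. PDSS2, a subunit of the enzyme that builds the side chain of ubiquinone, had a mean of 19.3 ± 1.12 CPM in siYY1 and 4.76 ± 0.275 CPM in siFDPS libraries (SD, n = 3 in each), a log2 fold change of 1.98, and its partner PDSS1 differed by 0.67. DHDDS, which builds dolichol chains, was lower (−0.71). The Rab escort protein genes CHML (0.60) and CHM (−0.39) went in opposite directions.

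Lysosomal genes were mostly lower in siYY1. Of 45 enzymes and membrane proteins, 32 were lower and 5 higher, with a median log2 fold change of −0.64. The median log2 difference from the siNC mean was −0.01 in siYY1 and 0.38 in siFDPS libraries. GPNMB, a transmembrane glycoprotein gene of the MiT/TFE programme, had 0.817, 0.786 and 1.18 CPM in siYY1 and 24.2, 23.4 and 19.8 CPM in siFDPS libraries, which is a log2 fold change of −4.64 (SE 0.189, edgeR adjusted p = 5.1e-06). Its siNC mean of 0.754 CPM was close to the siYY1 values. NAGLU, which degrades heparan sulfate, had 14.7, 12.2 and 14.0 CPM against 43.7, 41.1 and 40.1 CPM (−1.65), and the peptidase gene TPP1 had 90.9, 91.5 and 99.2 CPM against 248, 326 and 237 CPM (−1.57). AC067852.1 overlaps NAGLU and AC091564.7 overlaps TPP1 on the same strand. CTSS (cathepsin S, 1.07), ARSB (1.04) and PPT1 (0.81) were among the 5 higher genes. CD68, a lysosomal glycoprotein gene also used as a macrophage marker, was lower, with 8.28, 6.17 and 6.53 CPM against 31.5, 26.7 and 33.2 CPM (−2.17). The 6 immune cell markers summed to 7.48 to 9.35 CPM in siYY1 and 27.7 to 34.5 CPM in siFDPS libraries, most of it CD68, while CD3E had no count and PTPRC was at most 0.134 CPM as a group mean.

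The proton pump that acidifies lysosomes showed the same side. Of 21 V-ATPase subunits, 12 were lower and 1 higher, with a median of −0.66. ATP6V1A, the catalytic subunit, had 37.4, 37.4 and 39.7 CPM in siYY1 and 193, 191 and 190 CPM in siFDPS libraries, which is a log2 fold change of −2.37 (SE 0.0424, edgeR adjusted p = 9.0e-07). Here the siNC mean of 145 CPM lay nearer to siFDPS. ATP6V1B2 had 67.4, 69.1 and 65.2 CPM against 214, 203 and 205 CPM (−1.67). ATP6V0D2 had no count in the siYY1 libraries and 125, 110 and 79 counts in the siFDPS libraries, at least 38.3-fold lower when each siYY1 library is set to a floor of 3 counts, and 2 other genes overlap it. The median of the list is the same −0.66 with this gene at its bound. ATP6V0E2 was the higher one (1.64).

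Of 18 MiT/TFE factors and regulators, 9 were lower and 4 higher. The factors themselves did not follow the lysosomal genes: TFEB (1.24) and MITF (1.02) were higher, at 2.56 and 8.16 CPM as siYY1 means, and TFE3 (−0.04) did not pass the test. The Rag GTPase genes RRAGD (−1.48), RRAGC (−1.31) and RRAGB (−1.17), which recruit mTORC1 to lysosomes, were lower, while MTOR was higher (0.93). RRAGD ranged from 37.6 to 70.1 CPM among the siFDPS libraries, above the 19.5 to 21.3 CPM of the siYY1 libraries.

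The CLEAR element, the E-box motif bound by MiT/TFE factors, was searched as TCACGTGA, which reads the same on both strands. It was chosen after the results were seen. Because MiT/TFE factors control lysosomal genes, the share with a match describes the list and not the comparison. A match describes the letters and not binding. Of the 42 lysosomal and V-ATPase genes with a promoter, 8 (19.0%) held it, against 2.15% of the tested genes with a promoter and 0.980% of all promoters in the table. None of the 8 was higher and 7 were lower in siYY1 (median −0.70), and of the 34 without it 4 were higher and 17 lower (median −0.55). Over all tested genes, 22.7% of the 242 with the motif were higher and 42.6% lower, against 35.4% and 27.8% of the 11027 without it. The stretches around the motif (capitals, 5′ to 3′ on the strand of the gene, RefSeq GRCh38.p14) are shown for the 3 of these genes with the largest differences. They are the sulfatase gene GALNS (chr16:88857070-88857167, minus strand), the protective protein cathepsin A gene CTSA (chr20:45891264-45891361, plus strand) and ATP6V0D1 (chr16:67481165-67481262, minus strand).
GALNS: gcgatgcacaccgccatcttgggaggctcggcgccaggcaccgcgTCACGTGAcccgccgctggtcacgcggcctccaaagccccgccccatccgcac
CTSA: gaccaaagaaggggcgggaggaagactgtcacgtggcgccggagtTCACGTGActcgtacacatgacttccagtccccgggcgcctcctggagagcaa
ATP6V0D1: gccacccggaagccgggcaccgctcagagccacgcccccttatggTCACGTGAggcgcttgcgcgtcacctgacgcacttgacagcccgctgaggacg
GALNS had 23.7 ± 1.97 CPM in siYY1 and 44.9 ± 1.95 CPM in siFDPS libraries, CTSA 245 ± 4.56 and 432 ± 11.6 CPM, and ATP6V0D1 141 ± 15.9 and 242 ± 4.38 CPM (SD, n = 3 in each). Their log2 fold changes were −0.97, −0.86 and −0.82.

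Genes of ribosome production were mostly higher in siYY1, and those of the ribosome itself were not. Of 40 ribosome biogenesis factors, 30 were higher and 3 lower, with a median of 0.48. NOLC1, a nucleolar phosphoprotein gene, had 662, 661 and 665 CPM in siYY1 and 177, 182 and 236 CPM in siFDPS libraries, which is a log2 fold change of 1.70 (SE 0.107, edgeR adjusted p = 2.6e-05), with 96.6 CPM in siNC libraries. NOP14 (1.21) and RRP1B (1.18) were higher too, while RRN3, an initiation factor of RNA polymerase I, was lower (−0.76). Of 79 cytosolic ribosomal protein genes, 10 were higher and 26 lower, with small differences (median −0.09, range −0.76 to 0.98). With upper-quartile scaling 5 were higher and 46 lower. Of 20 aminoacyl-tRNA synthetase genes 9 were higher and 3 lower, led by DARS (1.02) and EPRS (0.94), and with upper-quartile scaling 7 were higher and 6 lower.

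Mitochondrial ribosomal protein genes were on the higher side (38 higher and 13 lower of 79, median 0.26). The core letters of the YY1 motif, ATGGCGG on either strand, were found in 24 (34.3%) of the 70 with a promoter, against 11.7% of the tested genes with a promoter. Of these 24, 15 were higher and 3 lower (median 0.48), and of the 46 without the letters 19 were higher and 7 lower (median 0.17). MRPL46 had 33.2, 33.8 and 32.2 CPM in siYY1 and 11.5, 12.7 and 10.7 CPM in siFDPS libraries (log2 fold change 1.47, SE 0.0830), with 25.4 CPM in siNC libraries, and MRPL42 differed by 1.02. Both genes overlap another gene on the same strand, and both are shown with the motif in capitals (MRPL46, chr15:88467359-88467422, minus strand; MRPL42, chr12:93467480-93467543, plus strand).
MRPL46: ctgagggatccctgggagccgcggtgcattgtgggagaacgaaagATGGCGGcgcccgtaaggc
MRPL42: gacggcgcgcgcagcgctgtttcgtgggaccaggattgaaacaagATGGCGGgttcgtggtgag
MRPL10 (1.48) had 28.9, 75 and 31.1 CPM against 24.2, 11.4 and 11.3 CPM, and its call was lost when siYY1 library 2 (log2 fold change 0.90, adjusted p = 0.087) or siFDPS library 2 or 3 was left out (adjusted p = 0.11 in each).

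Over all genes, the YY1 core letters did not separate the higher from the lower calls. They were less frequent among large changes on both sides. The promoters of 8.58% of the genes at least 2-fold higher and 7.56% of those at least 2-fold lower held them, against 11.7% of the tested genes with a promoter. Of 1319 tested genes with ATGGCGG or its reverse CCGCCAT in the promoter, 36.2% were higher and 28.1% lower in siYY1, against 35.0% and 28.1% of the 9950 without it. The median log2 fold changes were 0.05 in both. Of the 342 genes with the same 7 letters preceded by AAG, 36.8% were higher and 28.4% lower.

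Respiratory chain genes of the mitochondrial and the nuclear genome differed in their counts. Of 13 mitochondrially encoded subunits 12 were lower and none higher, with a median of −0.33, in the libraries whose mitochondrial share of counts was also lower. MT-CO3, a subunit of cytochrome c oxidase, had 4020, 3870 and 3970 CPM in siYY1 and 5380, 4960 and 5080 CPM in siFDPS libraries (log2 fold change −0.42). Of 77 nuclear subunits 26 were higher and 17 lower (median 0.06), and with upper-quartile scaling 20 were higher and 27 lower (median −0.05). The YY1 core letters were found in 21 (33.3%) of the 63 nuclear subunits with a promoter, whose median log2 fold change was 0.04, against 0.07 for those without them. The complex I genes NDUFB1 (1.89) and NDUFV2 (1.59) were among the highest. NDUFB1 had 32.2, 27.9 and 28.7 CPM against 6.68, 7.73 and 8.83 CPM.

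Genes of the ATF4 response to amino acid shortage differed in both directions. Of 32 tested, 17 were higher and 8 lower (median 0.24). SLC7A11, the cystine importer gene, had 773, 797 and 780 CPM in siYY1 and 90.6, 84.4 and 77.7 CPM in siFDPS libraries, which is a log2 fold change of 3.17 (SE 0.0659, edgeR adjusted p = 9.6e-07), with a siNC mean of 320 CPM between them. ALDH18A1, which starts proline synthesis, had 584, 569 and 592 CPM against 85.7, 88.2 and 94.5 CPM (2.66), and the alanine aminotransferase gene GPT2 differed by 2.03. PHGDH, which starts serine synthesis, was higher (0.75). DDIT3 (CHOP) had 17.2, 19.2 and 19.6 CPM against 48.3, 44.6 and 39.0 CPM (−1.28). CEBPB (−1.25) and the proline enzyme gene PYCR1 (−1.04) were lower as well. ASNS (asparagine synthetase) had 49 ± 1.99 CPM in siYY1 and 48.2 ± 5.33 CPM in siFDPS libraries (SD, n = 3 in each) and did not pass the test (−0.02, adjusted p = 0.88), both above the siNC mean of 24.6 CPM.

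Endoplasmic reticulum chaperones and unfolded protein response genes were more often lower (13) than higher (6) among 24 tested. The chaperone genes HSP90B1 (−0.79) and HSPA5 (−0.65) were lower, at 886 ± 24.9 CPM for HSPA5 in siYY1 and 1350 ± 60.2 CPM in siFDPS libraries (SD, n = 3 in each). The sensor gene ATF6 (1.54) and the oxidase gene ERO1A (1.53) were higher.

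Genes of adhesion and matrix changed in both directions. Of 18 integrin subunits 6 were higher and 8 lower. ITGA2, a collagen receptor subunit, had 320, 316 and 301 CPM in siYY1 and 43.2, 47.1 and 49.7 CPM in siFDPS libraries (log2 fold change 2.70, SE 0.0603, edgeR adjusted p = 1.2e-06), and ITGB4, the hemidesmosome subunit, had 28.1, 25.8 and 24.8 CPM against 3.76, 3.70 and 3.32 CPM (2.83). ITGB1, the common β1 chain, was lower, with 926, 925 and 877 CPM against 2050, 1670 and 1990 CPM (−1.11), and its siNC mean was 1030 CPM. ITGB8 was lower by a log2 fold change of −1.49. ITGB3 was at 15 ± 1.04 CPM in siYY1 and 14.0 ± 0.769 CPM in siFDPS libraries (SD, n = 3 in each) and did not pass the test (0.06, adjusted p = 0.58), while its siNC mean was 75.7 CPM. Of 32 collagen and laminin chains 8 were higher, among them the basement membrane chain COL4A1 (1.75), and 13 lower, among them COL7A1 (−1.05) and LAMA1 (−1.28). The fibroblast collagen chain COL1A1 was higher (2.03) at 7.37 against 1.75 CPM as group means. The 6 fibroblast and muscle markers summed to 12.3 to 13.4 CPM in siYY1 and 4.84 to 5.43 CPM in siFDPS libraries. Every library is labelled as T24 cells alone, and whether other cells added to these values was not tested. The 5 endothelial markers summed to less than 1 CPM in every library.

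Of 20 epithelial-mesenchymal transition genes tested, 7 were higher and 7 lower. FN1 (fibronectin) had 489, 492 and 504 CPM in siYY1 and 2080, 2140 and 2140 CPM in siFDPS libraries, which is a log2 fold change of −2.14 (SE 0.0269, edgeR adjusted p = 7.8e-07), with 2300 CPM in siNC libraries. SNAI2, an epithelial repressor gene, was lower (−1.94), with siFDPS libraries at 18.8, 60.4 and 55.7 CPM and siYY1 libraries at 11.3 to 12.7 CPM. EPCAM, an epithelial adhesion molecule, was higher (2.04) at 3.85, 4.65 and 4.38 CPM against 1.29, 0.925 and 0.833 CPM, and so were the epithelial splicing factor gene ESRP2 (1.20) and the matrix protein gene TGFBI (1.56), which TGF-beta induces. Among 30 YAP/TAZ factors and targets 9 were higher and 12 lower, from IGFBP3 (1.23) to TGFB2 (−1.64), with the receptor kinase gene AXL at −0.92.

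Inflammatory cytokine and NF-kB genes were largely lower in siYY1 (21 lower and 3 higher of 33, median −0.83). TNFAIP6, a hyaluronan-binding protein gene, had 0.0667, 0.120 and 0.273 CPM against 3.26, 2.63 and 3.46 CPM (log2 fold change −4.37, SE 0.419, edgeR adjusted p = 0.00018). CXCL6, a neutrophil chemokine gene, had 0.567, 0.700 and 0.767 CPM against 5.89, 4.29 and 5.14 CPM (−2.95), and PTGS2 (cyclooxygenase 2) differed by −2.81. The siYY1 values of TNFAIP6 rest on 4, 7 and 16 counts, and without siYY1 library 3 its log2 fold change was −5.07. IL1A went the other way, with 217, 220 and 225 CPM against 93.1, 85.4 and 101 CPM (1.20). Of 44 interferon-stimulated genes 14 were higher and 17 lower (median −0.03), although both groups lay under siNC, with median log2 differences of −1.16 in siYY1 and −0.89 in siFDPS libraries. The antiviral genes OASL (1.43) and EIF2AK2 (1.04) were higher, and TRIM22 (−1.95), the interferon signalling factor STAT2 (−1.72) and SAMD9 (−1.65) were lower. Of 17 genes of antigen presentation on MHC class I, 4 were higher, among them the peptide transporter gene TAP2 (0.68), and 7 lower. Of 25 immediate early factors 6 were higher, among them JUN (0.93) and EGR1 (0.92), and 8 lower, among them the phosphatase gene DUSP1 (−1.60).

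Glycolysis genes were mostly higher in siYY1 (18 higher and 2 lower of 24, median 0.50). HK2, which phosphorylates glucose, had 125, 116 and 108 CPM against 32.7, 34.2 and 32.2 CPM (log2 fold change 1.77), above the siNC mean of 55.0 CPM, and GPI differed by 1.02. Of 35 proteasome subunits 21 were higher and 2 lower (median 0.22), and with upper-quartile scaling 13 were higher and 8 lower. The activator subunit gene PSME2 (1.77) led them. Of 25 p53 target genes 9 were higher, among them the repair gene XPC (1.29) and BTG2 (1.48), and 14 were lower. ZMAT3, a p53-induced zinc finger gene, had 10.5, 13.5 and 20.4 CPM against 78.6, 71.2 and 69.3 CPM (−2.35), GDF15 differed by −1.97 and SESN1 by −1.45.

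Genes of YY1 partners and Polycomb proteins were divided, with 17 higher and 16 lower of 45 (median 0.06, and −0.05 with upper-quartile scaling). HCFC1, a host cell factor that YY1 recruits, had 350, 359 and 388 CPM in siYY1 and 106, 107 and 102 CPM in siFDPS libraries, which is a log2 fold change of 1.76 (SE 0.0516, edgeR adjusted p = 2.3e-06), with 134 CPM in siNC libraries. PCGF6 had 43.4, 81.7 and 43.9 CPM against 14.9, 8.41 and 9.75 CPM (2.31), and BMI1, a subunit of the Polycomb repressive complex PRC1, had 83.6, 88.3 and 85.6 CPM against 32.7, 30.8 and 25 CPM (1.50). The readthrough gene COMMD3-BMI1 overlaps BMI1, and RNU11-3P overlaps PCGF6. PHC3 of the same complex was lower (−1.51), as were SFMBT2 (−1.84), a relative of a fly Polycomb protein that pairs with the fly counterpart of YY1, and JARID2 (−1.31), a cofactor of PRC2. JARID2 was at 47.5 CPM in siYY1 and 114 CPM in siFDPS libraries, both above its siNC mean of 21.9 CPM.

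A ranking outside the lists took called protein-coding genes with a mean of at least 500 counts and no overlap between the groups. Genes that another annotated gene overlaps on the same strand were left out of it. Among the ranked genes, the largest differences on the higher side after those already named included INHBB (activin beta B). It had 45.6, 45.6 and 50.8 CPM in siYY1 and 2.71, 2.64 and 2.07 CPM in siFDPS libraries (log2 fold change 4.21, SE 0.127, edgeR adjusted p = 2.5e-06). CYFIP2, a gene of the WAVE actin regulatory complex, had 70.1, 72.2 and 70.7 CPM against 2.99, 5.42 and 4.97 CPM (3.95). GCLM, a subunit of the enzyme that starts glutathione synthesis from the cysteine that SLC7A11 brings in as cystine, had 251, 269 and 277 CPM against 28.0, 28.6 and 28.5 CPM (3.18). The pentose phosphate gene RPIA (3.35), CAB39L (3.38), the fructokinase gene KHK (3.11), the acyl-CoA dehydrogenase gene ACADSB (2.87) and the lysosomal membrane protein gene LAMP3 (2.77) followed.

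On the lower side, the cytokine gene IL24 had 0.617, 0.564 and 1.07 CPM in siYY1 and 38.6, 33.9 and 43.5 CPM in siFDPS libraries (log2 fold change −5.72, SE 0.258, edgeR adjusted p = 7.0e-06), with 4.29 CPM in siNC libraries. FAM49A had 0.517, 1.06 and 1.12 CPM against 28.6, 29.8 and 30.9 CPM (−5.09). PTGES, a prostaglandin E synthase gene, had 4.72, 5.52 and 4.98 CPM against 99.1, 97.7 and 102 CPM (−4.34), and here the siNC mean of 133 CPM was near the siFDPS libraries. SCG5 (−4.32), SPOCD1 (−3.31), RBM24 (−3.24), GEM (−3.20), the splicing regulator gene PTBP2 (−3.19) and the myosin light chain kinase gene MYLK (−3.05) were lower too. TP53INP2, an autophagy gene, had the lowest value of the ranked genes (−6.17, SE 1.49). Its libraries were uneven, however, with 0.733, 0.615 and 0.256 CPM in siYY1 and 0.825, 55.7 and 56.1 CPM in siFDPS libraries. BMF, a pro-apoptotic gene, had 4.25, 0.974 and 0.647 CPM against 19.2, 22.6 and 22.1 CPM (−3.48, SE 0.677). Without siYY1 library 1, the highest of its group, the log2 fold change of BMF was −4.75.

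By the KEGG pathways written in the deposited table, among 271 pathways with 20 to 200 tested genes, the shares of higher genes were largest for DNA replication (76.9% of 39), nucleotide excision repair (70.2% of 47), pyruvate metabolism (64.9% of 37), one carbon pool by folate (59.1% of 22) and homologous recombination (58.3% of 48). The shares of lower genes were largest for mineral absorption (58.5% of 41), systemic lupus erythematosus (58.1% of 74), lysosome (51.8% of 141), alcoholism (50.4% of 135) and malaria (48.1% of 27). In the lupus and alcoholism pathways, 29 of the 43 and of the 68 lower genes, respectively, were the histone genes described above.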

How the data were processed

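RNA of T24 cells (siNC, siFDPS, siSQLE and siYY1, 3 libraries each) was analysed from 1 table of whole-number counts, deposited by the authors without normalization, with 206601 transcripts of 58735 genes. The submitters' processing notes name Trimmomatic 0.36, STAR 2.5.3, featureCounts and Subread 1.5.1, and the build GRCh38. The labels describe a stranded mRNA kit with molecular identifiers; whether identifiers or strand entered the counting is not given in the sources used here. Counts were summed per gene. The 3 siYY1 and 3 siFDPS libraries were tested with edgeR 4.0.16 (quasi-likelihood, TMM, filterByExpr defaults) in R 4.3.3, with Benjamini-Hochberg adjustment over 18909 genes and a threshold of 0.05. SE was obtained as |log2 fold change| over the root of F. CPM used TMM factors over 12 libraries. DESeq2 1.42.0, which the study's methods name, was an alternative.

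The members of the comparison, the 37 gene lists and the rule for named genes were chosen with earlier results of these data known. The rule took YY1, FDPS and SQLE, and in each list up to 3 higher and 3 lower genes with the largest differences. List genes needed a mean of at least 50 counts and no overlap between groups. It also took 12 genes in each direction outside the lists, with a mean of at least 500 counts and no overlap between groups. These were protein coding and overlapped no other annotated gene on the same strand. Genes the study discusses were added, giving 208 in all, of which those of interest by role were described. Members of the MVA list outside the rule, single members given for their role, marker genes, histone genes and the genes with printed promoters were chosen after their values were seen. The motifs TTTCCCGC, TTTGGCGC and TCACGTGA were also chosen after the results, and TCACNCCAC, a sterol regulatory element form, was found in 1 of 33 promoters of sterol genes. In the RefSeq promoter table, 11269 tested genes had an entry. No set test was run. Some members of the lists are not reported here, and they still count in the totals of their lists. On simulated counts the code was tested. Python 3.11.15 (pandas 2.3.3, matplotlib 3.10.9) was used for summaries.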

Additional observations from a re-analysis of the deposited data

How the results depend on the processing

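In 15 alternatives to the test of siYY1 against siFDPS libraries, between 9520 and 11016 genes passed the threshold, against 10804, and no gene was called in the opposite direction. Counts of higher and lower genes stayed within 1.5 times in each alternative, except that genes at least 2-fold lower numbered 1467 instead of 2214 when a mean of at least 50 counts was required, which left 14398 genes to test. With each library left out in turn, 9797 to 10137 genes passed. Upper-quartile scaling moved the median of all genes by −0.11 (log2), and higher genes then made up 42.7% of the calls, against 50.7%; changes in lists of small median should be read relative to this shift. The medians of 6 of 37 lists changed sign in at least 1 alternative, all of them under 0.2 in size: YY1 partners and nuclear respiratory chain subunits with upper-quartile scaling, and prenyl, integrin, interferon-stimulated and luminal marker lists with a library left out. Of 3119 pairs of a named gene and an alternative, 57 lost the call (GGPS1, RHOBTB3, MRPL10, NARS, HERPUD1, LIF, PGK1, PSMD2, KRT7, PPARG and TP53INP2) and none reversed; the cause was not tested. The DNA replication list kept 42 to 43 higher genes and the mitosis list 48 to 49, and 23 to 33 histone genes were lower.

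With the replicate number as a block, 9993 genes passed, 9754 of them also called without it, and among the named genes TP53INP2 (adjusted p = 0.067), MRPL10 (0.075) and GGPS1 (0.051) lost their calls. Deviations of same-numbered siYY1 and siFDPS libraries from their group means correlated across 18909 genes at 0.041, 0.024 and 0.044, under the 0.1 set for a pairing, although each library correlated best with its own number; the numbers were not taken to pair the samples. Depth limits small changes: genes with few counts, such as the uroplakins, were not tested.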

Other observations

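Some gene groups lay on the same side of siNC in both knockdowns, which the direct comparison does not show. Glycolysis genes had a median log2 difference from the siNC mean of −0.20 in siYY1 and −0.59 in siFDPS libraries, against 0.01 in siSQLE libraries, and 17 of the 24 had their siNC mean above both groups. MHC class I genes had −0.56 and −0.35, against −0.29 in siSQLE libraries, and for 12 of 17 the siNC mean was above both groups. Ribosome biogenesis factors had 0.77 in siYY1 and 0.27 in siFDPS libraries, against −0.15 in siSQLE libraries, and for 28 of 40 the siNC mean was below both groups. Aminoacyl-tRNA synthetases had 0.60 and 0.15, against 0.14 in siSQLE libraries. Proteasome subunits had 0.30 and 0.09, against 0.05 in siSQLE libraries, and for 22 of 35 the siNC mean was below both groups. Their medians by library ran from 0.043 to 0.149 in siFDPS and from −0.067 to 0.064 in siNC, so the lowest siFDPS library lay within the siNC range. Endoplasmic reticulum chaperones and unfolded protein response genes had 0.35 and 0.39, against 0.32 in siSQLE libraries, and for 14 of 24 the siNC mean was below both groups. Over all called genes, the siNC mean lay above both groups for 20.6% of the higher and 25.3% of the lower genes. It lay below both for 28.5% and 26.5%, while the list counts also take in members not called. The siNC libraries are shared by these values and were not tested here.

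Epithelial-mesenchymal transition genes had medians of −0.44 in siYY1, −0.39 in siFDPS and −0.38 in siSQLE libraries against siNC. This list pools epithelial and mesenchymal genes, so its median gives no direction of transition. For 10 of its 20 genes the siNC mean was above both siYY1 and siFDPS, for 7 between them and for 3 below both. Processed pseudogenes, which can take reads from their parent genes, were 10.8% higher and 26.4% lower in siYY1 among 1161 tested, and genes of the biotype TEC (transcripts still awaiting experimental evidence in the annotation) were 7.06% higher and 36.1% lower among 255.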
